A study of Mus musculus with 12 samples.

Results

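The cortex of TLR4-KO mice given ethanol (TLR4-KO + EtOH) was compared with the cortex of untreated wild-type mice (WT) across every miRNA precursor of the deposited table. The comparison takes the 3 TLR4-KO + EtOH libraries and the 3 WT libraries, chosen by their group labels, so 6 of the 12 libraries of the series, and it covers 589 precursors. All mice were females of the C57BL/6J background, aged 7 weeks at the start, kept on solid food. TLR4-KO + EtOH mice lacked TLR4 in all tissues and drank water with 10% (v/v) ethanol for 5 months, and WT mice carried TLR4 and drank water for the same 5 months. The contrast therefore changes genotype and drink together, and the groups TLR4-KO and WT + EtOH, with 3 libraries each, separate the steps. The paper's methods give a commercial supplier for the WT mice and a laboratory in Osaka for the TLR4-KO mice. Littermates are not mentioned, so the genotype and the origin of the mice cannot be told apart. Each library was made from pooled RNA of 3 mice, so that every SD below is a spread between pools and not between animals, and no single mouse can be followed.

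miRNAs are cut from hairpin precursors, and the mature strand guides silencing complexes to mRNAs through its seed, the bases from position 2 to position 8. TLR4 is the receptor of the innate immune system for bacterial lipopolysaccharide, carried in brain mostly by microglia, and it signals to NF-kB, which drives the transcription of inflammatory genes and of several miRNAs. Ethanol is known to engage this receptor in glia.

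The mature sequences of the precursors that the results turn on follow, from RefSeq (build GRCm38.p6), written 5′ to 3′ with the seed in capitals. The first group of lines shows members of the miR-125 seed family, which share the seed CCCUGAG and were higher in TLR4-KO + EtOH.
mmu-miR-125b-5p: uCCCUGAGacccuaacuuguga
mmu-miR-125a-5p: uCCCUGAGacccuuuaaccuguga
mmu-miR-351-5p: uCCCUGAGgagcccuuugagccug

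The next lines show precursors called lower in TLR4-KO + EtOH than in WT, and miR-200a and miR-200b, which were listed at 0 there. miR-451a is the main miRNA of red blood cells, miR-96 belongs to the miR-183 cluster of sensory cells, miR-200a and miR-200b to a family of epithelial cells, and miR-299a to the imprinted Dlk1-Dio3 cluster.
mmu-miR-451a: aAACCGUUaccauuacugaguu
mmu-miR-96-5p: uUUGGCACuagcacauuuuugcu
mmu-miR-200b-3p: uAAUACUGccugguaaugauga
mmu-miR-200a-3p: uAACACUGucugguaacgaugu
mmu-miR-299a-5p: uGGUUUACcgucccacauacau

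The last lines show the other precursors that were higher in TLR4-KO + EtOH.
mmu-miR-344d-3p: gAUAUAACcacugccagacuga
mmu-miR-7224-5p: gGGUAGGCcccucagugaaga
mmu-miR-3087-3p: uAACUCACugucauguccuca

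Values are given per precursor, so they do not tell which arm of a hairpin was read. The deposited values are scores whose scale behaves like a logarithm, and a difference between scores is not a fold change. They hold no read numbers, so the depth behind a value is unknown. Of the 589 precursors, 324 were above 0 in at least 1 library, 265 were at 0 in all 12 and 190 were above 0 in all 12. The score depends on the order of the precursors within a library, since the first 14 positions carry the same values in all 12 libraries, the highest being 134.8. Over the first 200 positions the libraries differed by at most 3.58 at any position. The lowest score above 0 was 1.25, 4.23 and 4.08 in the WT libraries and 4.08, 5.26 and 7.29 in the TLR4-KO + EtOH libraries, and it reached 14.1 in a TLR4-KO library. Low scores thus do not mean the same in every library. The tissue label was checked on markers. All 13 neuron-enriched precursors were above 0 in at least 1 library. Their mean scores over the 12 libraries ran from 6.57 for mir-137 to 90.7 for mir-138-1. The means of mir-124-1, mir-124-2 and mir-124-3 were 34.2, 33.0 and 41.8. Of the 8 precursors of muscle, liver and pancreas that the table lists, 7 were at 0 in every library, mir-375 being the exception. A table of miRNAs does not measure Tlr4 itself.

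In all, 11 of the 589 precursors were called between TLR4-KO + EtOH and WT at a Benjamini-Hochberg adjusted p under 0.05 in limma, which is 1.87% of those tested. Of these, 6 were higher in TLR4-KO + EtOH (1.02%) and 5 were lower (0.849%). At an unadjusted p under 0.05 there were 63 (10.7%), of which 33 were higher (5.6%) and 30 lower (5.09%). The 3 values of each group did not overlap for 96 precursors (16.3%), 46 of them higher (7.81%) and 50 lower (8.49%) in TLR4-KO + EtOH. Of the 324 precursors above 0 in any library, these were 29.6%, with 14.2% higher and 15.4% lower. An exact permutation test of 3 libraries against 3 cannot go below 0.1, and each of the 11 reached that value.

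**Figure D1:**
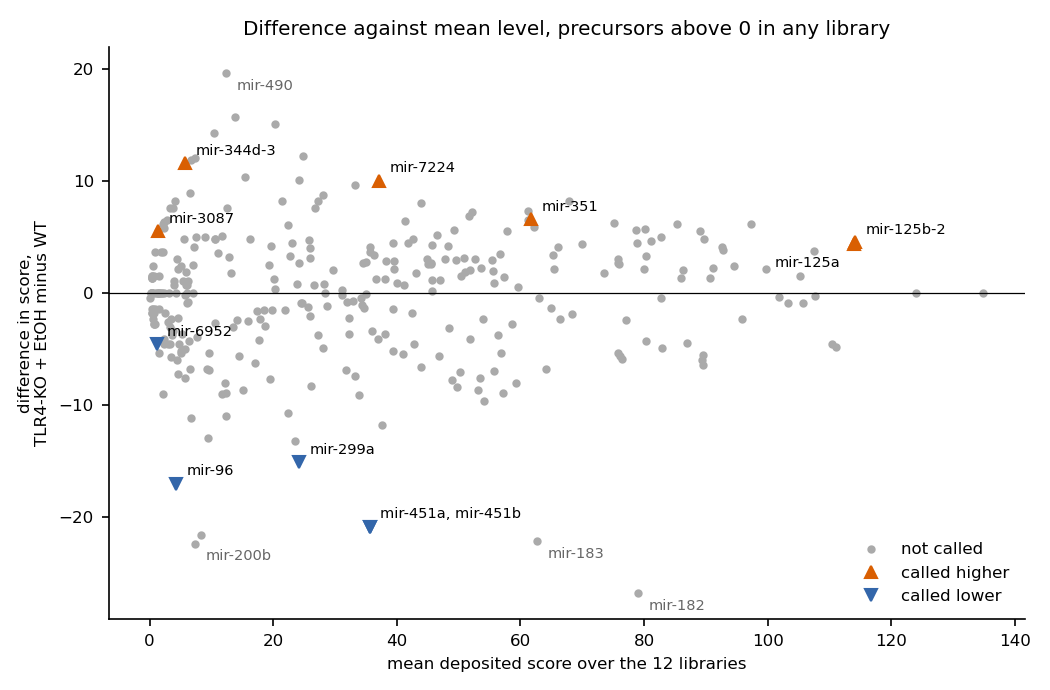
Difference in deposited score, TLR4-KO + EtOH minus WT (vertical axis), against the mean score over the 12 libraries (horizontal axis) for the 324 precursors above 0 in any library. Triangles mark the 11 called precursors. mir-182, with the lowest difference of all at -26.8, and mir-490, with the highest at 19.7, were not called.

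The WT libraries were closer to each other than those of any other group. Over the 190 precursors above 0 in all libraries, the median SD was 1.75 in WT and 3.38 in TLR4-KO + EtOH, beside 4.28 in TLR4-KO and 3.50 in WT + EtOH. The median absolute difference between a pair of WT libraries lay between 1.92 and 2.36. Between a pair of TLR4-KO + EtOH libraries it lay between 2.27 and 5.68, and between a WT and a TLR4-KO + EtOH library between 3.22 and 5.91. The distances across the groups therefore overlapped the range of the distances inside TLR4-KO + EtOH. Replicate 1 of TLR4-KO + EtOH stood apart from its group, at 4.21 and 5.68 from replicates 2 and 3, which were at 2.27 from each other. Replicate 1 also stood apart in TLR4-KO (5.97 and 7.12, against 1.94) and in WT + EtOH (4.22 and 6.23, against 2.56). With these 3 libraries left out together, which was tried after seeing the data and leaves 2 libraries in each of these groups, 26 precursors were called, 13 higher and 13 lower. Of the 11, mir-299a, mir-344d-3, mir-351 and mir-96 were then not called and 7 were, and mir-26a-1, mir-26a-2, mir-9-1, mir-9-2 and mir-9-3 were among those gained.

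Of the miR-125 seed family 3 precursors were called, of which mir-125b-2 and mir-125a were among the most abundant in the cortex and mir-351 was at a lower level. mir-125b-2, whose mature miRNA is enriched in neurons, had scores of 111.3, 110.4 and 110.4 in WT and 115.5, 115.5 and 114.9 in TLR4-KO + EtOH. The difference was 4.56 ± 0.285 (SE; adjusted p = 4.61e-05 from limma), and the groups did not overlap. mir-125a, known to act on the A20 brake of NF-kB together with miR-125b, had 109.3, 111.3 and 111.3 in WT and 114.9, 114.9 and 115.5 in TLR4-KO + EtOH. It was higher by 4.43 ± 0.497 (SE; adjusted p = 0.00305 from limma). mir-351, which carries the same seed, had 58.8, 55.1 and 53.9 in WT and 63.0, 62.3 and 62.3 in TLR4-KO + EtOH, a difference of 6.64 ± 1.27 (SE; adjusted p = 0.0413 from limma). mir-125b-1, whose 5p mature sequence is also made by mir-125b-2, had 106.4, 106.4 and 102.3 against 107.8, 109.3 and 109.3 and was not called (difference 3.79, 95% interval -1.07 to 8.64). All 4 members of the family were thus higher without overlap between the groups, as were 14.2% of all precursors above 0. Of the 4, 3 were called, where 1.02% of all tested were called higher. The family was listed with earlier results of these data known, so these shares describe it and are no separate support. The median difference of the family was 4.50, against 0 over the 324 precursors above 0 in any library and 1.04 over the 190 above 0 in all. The precursors lie apart in the genome (GRCm38). mir-125b-2 is at chr16:77646273-77646343 in an intron of the non-coding Mir99ahg, mir-125a at chr17:17830812-17830879 in an exon of Spaca6, and mir-351 at chrX:53053255-53053353 outside other annotated genes. The mir-125b copies share a mature sequence, and how the authors' mapping split its reads between them is not given in the sources used here.

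The calls for mir-125b-2 and mir-125a went with an exchange of positions at the top of the list. mir-181a-1 and mir-181a-2 held positions 1 and 2 in all 12 libraries, with 134.8 and 124.04. In the 3 WT libraries mir-26a-1 and mir-26a-2 held positions 3 and 4, with 115.5 and 114.9. In the other 9 libraries mir-125b-2 and mir-125a held these positions, in either order, while mir-26a-1 and mir-26a-2 stood between positions 5 and 12. mir-26a-1 had 110.4, 111.3 and 110.4 in TLR4-KO + EtOH (difference -4.77, 95% interval -10.1 to 0.585, adjusted p = 0.563 from limma). mir-26a-2 had 109.3, 110.4 and 111.3 (difference -4.51, 95% interval -10.3 to 1.32). mir-26b, a member of the same family at a lower level, had 62.3, 62.3 and 62.0 in WT and 49.2, 53.6 and 55.0 in TLR4-KO + EtOH (difference -9.61, 95% interval -16.1 to -3.12, adjusted p = 0.190 from limma). None of the 3 members of the miR-26 family was called, and none overlapped between the groups, where 15.4% of all precursors above 0 were lower without overlap.

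mir-451a had the largest difference of the called precursors. Its scores were 50.2, 50.2 and 46.3 in WT and 24.5, 27.7 and 31.9 in TLR4-KO + EtOH. Every TLR4-KO + EtOH library was below every WT library, and the score fell by 20.9 (SE 2.63, adjusted p = 0.00364 from limma). mir-451b had the same score in every library. Both lie at chr11:78073170-78073241 on opposite strands, so that a count over the whole precursor cannot tell their reads apart without strand. Their mature sequences lie apart within it, at chr11:78073186-78073207 for miR-451a and chr11:78073219-78073239 for miR-451b. How the reads were counted is not given, and they are counted here as 2 rows for what may be the same reads. None of the other 3 precursors of the erythroid list was called. mir-486b had 92.4, 92.4 and 89.7 in WT and 92.4, 98.3 and 102.3 in TLR4-KO + EtOH, with overlap. mir-486a differed by -0.847 (95% interval -4.77 to 3.08). mir-144, which is transcribed with mir-451a and was added to the text after its values were seen, had 4.20, 8.17 and 0 in WT and was at 0 in the 3 TLR4-KO + EtOH libraries. The summed score of the 5 erythroid precursors was 287 to 306 in WT and 244 to 273 in TLR4-KO + EtOH. This sum adds mir-451a and mir-451b, so that the same fall enters it in 2 rows, and it does not show a fall of the whole list. The part of blood in these samples was not tested. In whole cortex, fewer cells of a type and less miRNA per cell cannot be told apart.

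The miR-183 cluster, 3 precursors of a single transcript known from sensory cells, had the lowest median difference of the 25 lists, at -22.2. The paper had already singled out this cluster and the miR-200 family in these libraries, so their place among the lists is no separate support. mir-96 had 12.1, 15.3 and 23.7 in WT and was listed at 0 in the 3 TLR4-KO + EtOH libraries, a difference of -17.0 ± 2.41 (SE; adjusted p = 0.00733 from limma). It lies at chr6:30169446-30169551 outside other annotated genes. mir-182 had 90.3, 109.3 and 107.8 in WT and 81.6, 72.7 and 72.7 in TLR4-KO + EtOH. Its difference of -26.8 was the lowest of all precursors, with an interval of -49.9 to -3.68 (adjusted p = 0.335 from limma). mir-183 had 74.8, 87.7 and 82.4 in WT and 59.7, 60.2 and 58.6 in TLR4-KO + EtOH (difference -22.2, 95% interval -44.7 to 0.326). The 3 members did not overlap between the groups and 1 of them was called. Lower without overlap were 15.4% of all precursors above 0, and 0.849% of all tested were called lower. The spread that enters the test for mir-182 and mir-183 comes largely from WT + EtOH, where mir-182 had 91.7, 75.6 and 48.6 and mir-183 had 78.0, 65.6 and 33.4. Without WT + EtOH replicate 3 mir-183 was called.

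The miR-200 family, known for holding cells in an epithelial state, was listed at 0 in all 3 TLR4-KO + EtOH libraries. mir-200b had 12.1, 27.7 and 27.5 in WT (difference -22.4, 95% interval -33.3 to -11.5, adjusted p = 0.0616 from limma). mir-200a had 17.6, 25.7 and 21.7 in WT (difference -21.7, 95% interval -32.4 to -10.9, adjusted p = 0.0645 from limma). mir-141 had 21.7, 0 and 5.23 in WT and overlapped. None of the family was called. The summed score of the family was 51.4 to 54.4 in WT. mir-200b and mir-200a lie next to each other at chr4:156055681-156055750 and chr4:156054896-156054985, both in introns of Ttll10 and Gm13648.

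The next called precursors belong to none of these groups. mir-299a, of the Dlk1-Dio3 cluster at chr12:109710638-109710700, had 29.9, 28.95 and 27.5 in WT and 11.1, 10.9 and 18.97 in TLR4-KO + EtOH, a difference of -15.1 ± 2.27 (SE; adjusted p = 0.00989 from limma). mir-7224, in an intron of B3galt1 at chr2:67675457-67675516, had 29.3, 26.95 and 30.1 in WT and 39.4, 38.3 and 38.8 in TLR4-KO + EtOH. The difference was 10.0 ± 1.95 (SE; adjusted p = 0.0413 from limma), and the groups did not overlap.

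mir-344d-3, in an intron of the non-coding A230057D06Rik at chr7:61726249-61726328, had 4.20, 4.23 and 5.23 in WT and 19.4, 18.1 and 11.0 in TLR4-KO + EtOH. It was higher by 11.6 ± 2.18 (SE; adjusted p = 0.0404 from limma). Its call was lost on leaving out any 1 of 9 of the 12 libraries. The calls for mir-351 and mir-7224 were lost on leaving out any 1 of 9 and of 10 libraries. mir-299a was no longer called without WT replicate 2 or without TLR4-KO + EtOH replicate 2, and the other 7 called precursors were called without any 1 of the 12 libraries. The 265 precursors at 0 everywhere enter the fit with no spread. When only the 285 precursors above 0 in at least 3 libraries were tested, mir-125b-2, mir-125a, mir-351, mir-3087 and mir-6952 were not called, and mir-200a, mir-200b and mir-490 were.

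mir-3087 and mir-6952 were called at the bottom of the scale. mir-3087, in an intron of Abca2 at chr2:25442779-25442834, was at 0 in WT and had 4.08, 5.26 and 7.29 in TLR4-KO + EtOH, which is the lowest score above 0 of each of these libraries (adjusted p = 0.00324 from limma). mir-6952 had 4.20, 4.23 and 5.23 in WT and was at 0 in TLR4-KO + EtOH (adjusted p = 1.85e-05 from limma). These WT scores are the lowest or the next lowest level of each library, and 13 precursors carry exactly these 3 scores, mir-344d-3 among them. The small p of mir-6952 goes with the absence of any spread in the 9 other libraries, where it was at 0, whereas mir-1251, mir-193b, mir-219a-2 and mir-467a-10 had the same 6 scores in WT and TLR4-KO + EtOH and adjusted p between 0.891 and 1 in limma. With all scores under 14.1 raised to 14.1, the highest of the libraries' lowest levels, mir-3087, mir-6952, mir-96, mir-344d-3, mir-351 and mir-7224 were not called and 6 precursors were called in all.

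**Figure D2:**
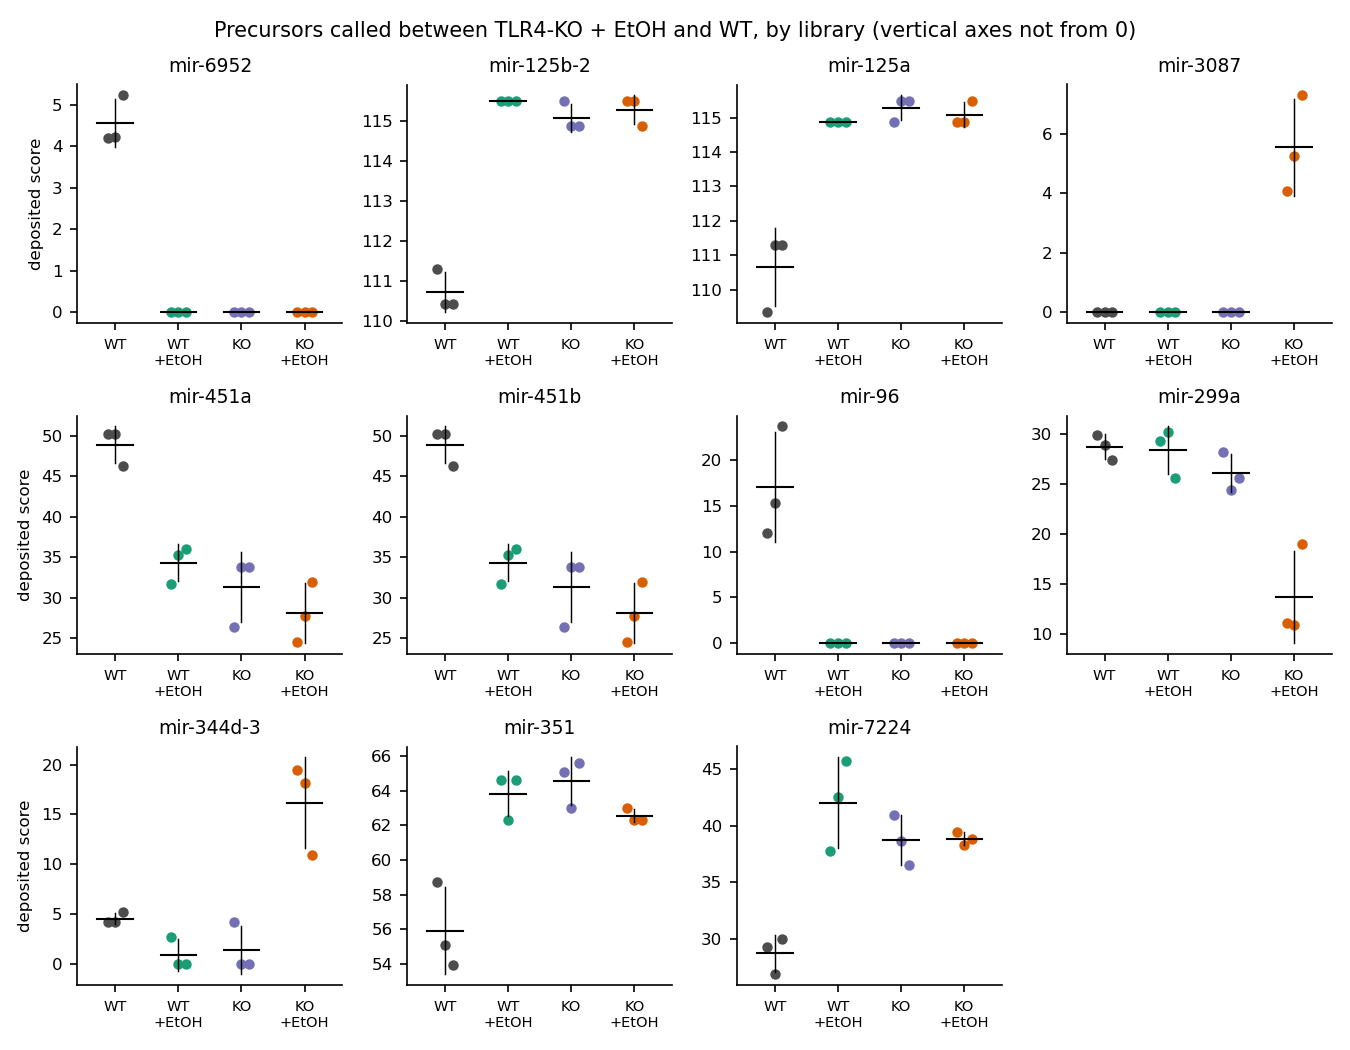
Deposited score (vertical axes, differing between panels and not all starting at 0) of the 11 called precursors in each library of the 4 groups, with KO for TLR4-KO. Points are libraries, horizontal lines the mean and vertical lines the SD of 3 libraries. mir-451a and mir-451b have the same values, and mir-299a, mir-344d-3 and mir-3087 stand apart in TLR4-KO + EtOH, whereas the others stand apart in WT.

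The groups TLR4-KO and WT + EtOH place these differences. Against WT, TLR4-KO had 15 called precursors (2.55%), 9 of them higher (1.53%) and 6 lower (1.02%), and WT + EtOH had 10 (1.7%), 6 of them higher (1.02%) and 4 lower (0.679%). For 8 of the 11 called precursors the WT libraries stood apart from all 9 other libraries. mir-125b-2 and mir-125a were between 114.9 and 115.5 in all 9, mir-351 between 62.3 and 65.6, and mir-7224 between 36.5 and 45.7, each above the WT range. mir-451a and mir-451b were between 24.5 and 36.0, and mir-96 and mir-6952 at 0, each below it. The difference of mir-451a from WT was -17.6 in TLR4-KO (adjusted p = 0.00948 from limma) and -14.6 in WT + EtOH (adjusted p = 0.0346 from limma), beside -20.9 in TLR4-KO + EtOH. That of mir-96 was -17.0 in each of the 3 groups. The WT libraries are shared by these comparisons, so that they are not independent of each other. For 7 of 589 precursors (1.19%) the effects of ethanol differed between the genotypes at an adjusted p under 0.05 in limma. The difference, TLR4-KO minus WT, was above 0 for 3 (0.509%) and below 0 for 4 (0.679%). mir-125b-2 and mir-125a, among these, were already near the top of the fixed scores in TLR4-KO, so the test does not show that their response differs. mir-6952 was at 0 in both TLR4-KO groups and could not go lower, and mir-3087 was above 0 only at the lowest score of each TLR4-KO + EtOH library. Between TLR4-KO + EtOH and TLR4-KO the differences of mir-125b-2, mir-125a, mir-451a and mir-7224 were 0.207, -0.207, -3.28 and 0.144, and between TLR4-KO + EtOH and WT + EtOH they were -0.207, 0.207, -6.27 and -3.16, with adjusted p of 1 from limma for each.

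The other 3 called precursors stood apart in TLR4-KO + EtOH. mir-344d-3 had 4.20, 0 and 0 in TLR4-KO and 2.72, 0 and 0 in WT + EtOH, so that TLR4-KO + EtOH was higher than TLR4-KO by 14.8 (adjusted p = 0.0347 from limma) and than WT + EtOH by 15.3 (adjusted p = 0.0274 from limma). mir-3087 was at 0 in the other 9 libraries (adjusted p = 0.0129 from limma against either group). mir-299a had 28.2, 24.5 and 25.7 in TLR4-KO and 29.3, 30.2 and 25.7 in WT + EtOH. Its difference was -12.4 against TLR4-KO (adjusted p = 0.0759 from limma) and -14.7 against WT + EtOH (adjusted p = 0.0317 from limma). No precursor outside these 3 was called in TLR4-KO + EtOH against TLR4-KO (2 of 589, 0.34%, both higher) or against WT + EtOH (3 of 589, 0.509%, of which 2 higher, 0.34%, and 1 lower, 0.17%). At an unadjusted p under 0.05 there were 41 (6.96%) and 27 (4.58%).

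**Figure D3:**
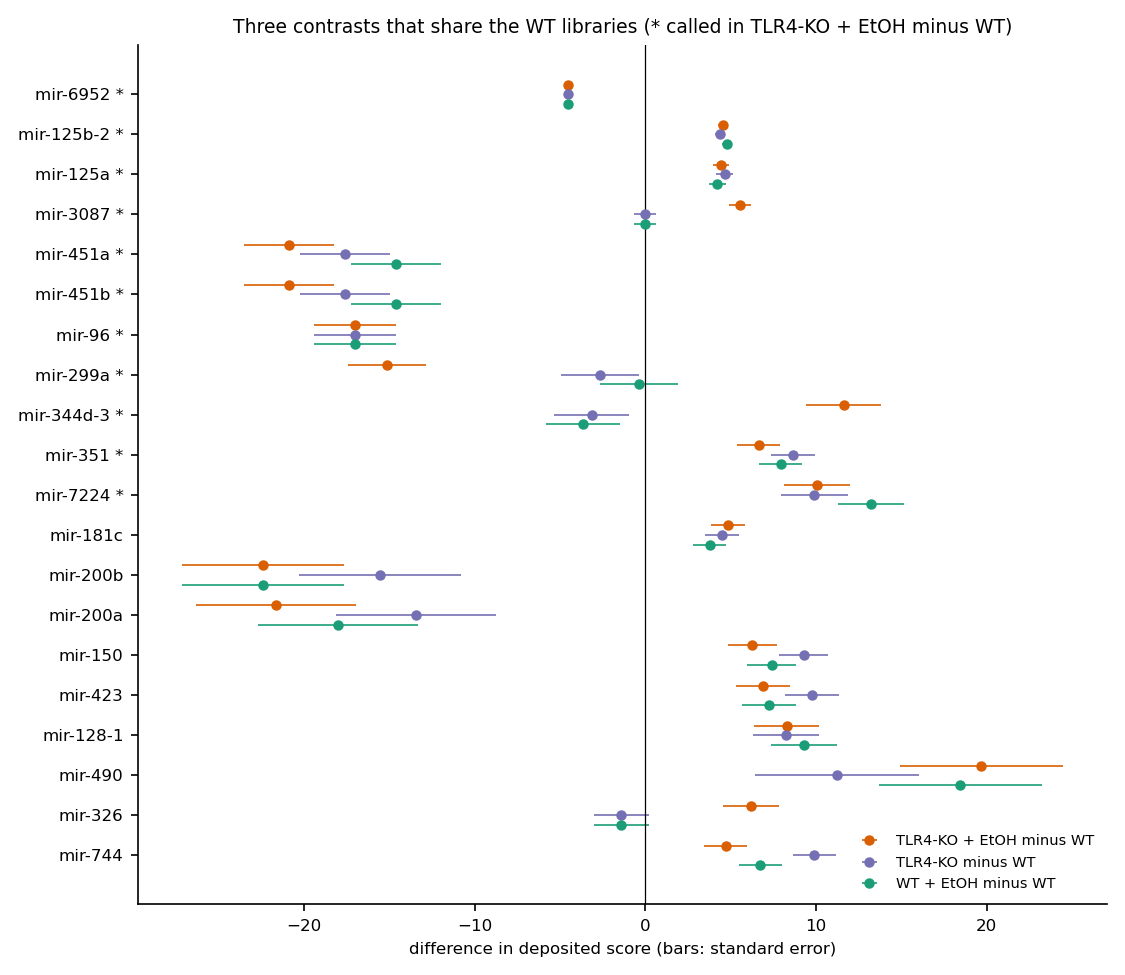
Difference in deposited score from WT (horizontal axis) of TLR4-KO + EtOH, TLR4-KO and WT + EtOH for the 20 precursors with the smallest p in TLR4-KO + EtOH against WT. Points are limma estimates, bars their standard errors, and an asterisk marks the 11 called precursors. The 3 contrasts share the WT libraries, and mir-3087, mir-299a, mir-344d-3 and mir-326 lie near 0 or on the other side of it in TLR4-KO and in WT + EtOH.

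The next 9 precursors by p were not called. mir-181c, of the family of the most abundant cortical miRNA, had 86.1, 86.1 and 86.9 in WT and 91.7, 90.3 and 91.7 in TLR4-KO + EtOH (difference 4.86, 95% interval 2.59 to 7.13, adjusted p = 0.0521 from limma). mir-150, a miRNA of mature lymphocytes, had 69.7, 68.7 and 69.7 against 74.8, 76.0 and 76.0 (difference 6.27, 95% interval 2.99 to 9.55). mir-128-1, which gives a neuronal miRNA, had 65.6, 58.3 and 60.2 against 68.7, 70.6 and 69.7 (difference 8.27, 95% interval 3.88 to 12.7). These 3 were without overlap, higher in TLR4-KO + EtOH. mir-128-2, the other mir-128 precursor, overlapped between the groups (difference 2.06).

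mir-423 had 45.6, 44.6 and 47.1 against 48.8, 55.0 and 54.1 (difference 6.89). mir-744 had 75.6, 76.0 and 75.6 against 79.9, 79.9 and 81.6 (difference 4.70), and its scores of 87.7, 84.6 and 84.6 in TLR4-KO were higher than in TLR4-KO + EtOH. mir-490, in an intron of the muscarinic receptor gene Chrm2, was at 0 in WT and had 15.5, 21.1 and 22.4 in TLR4-KO + EtOH. Its difference of 19.7 was the highest of all precursors (95% interval 8.71 to 30.6, adjusted p = 0.102 from limma). mir-326, in an intron of Arrb1, had 4.20, 0 and 0 against 4.54, 7.27 and 11.0 (difference 6.19). mir-200b and mir-200a complete the 9.

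Some precursors were found in every library of a group and in none of the other. 10 were above 0 in the 3 WT libraries and at 0 in the 3 TLR4-KO + EtOH libraries, and 5 the reverse, while 210 were above 0 in all 6. Among the 10 were mir-96, mir-200a, mir-200b, mir-6952 and the 4 that share its scores. mir-764, in WT at 4.20, 17.98 and 11.2, and mir-879, in WT at 6.87, 5.63 and 8.17, complete them. Of the 10, only mir-96, mir-200a and mir-200b were at 10 or more in the 3 WT libraries. Among the 5 were mir-3087, mir-490 and mir-696, the last with 17.5, 14.5 and 11.0 in TLR4-KO + EtOH. mir-448 and mir-24-1 had the same scores as each other, 4.54, 7.27 and 11.0. The other mir-24 precursor, mir-24-2, was above 0 in all 6 libraries. It had 36.5, 29.2 and 35.1 in WT and 38.6, 24.5 and 35.5 in TLR4-KO + EtOH, with overlap, so mir-24-1 does not speak for both. Since the lowest score above 0 differs between libraries, a listing at 0 sets no common upper limit on the level.

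The listed miRNA groups with a role in innate immunity were described by their members. The list of TLR4-NF-kB responsive miRNAs had 8 members above 0, of which none was called and 4 did not overlap, all of them lower in TLR4-KO + EtOH (lower without overlap were 15.4% of all precursors above 0), with a median difference of -5.74. 3 of the 4 were the mir-9 precursors, which make the same mature miRNA and are therefore not independent. mir-9-1 had 94.6, 93.7 and 93.4 in WT and 84.9, 89.8 and 89.2 in TLR4-KO + EtOH (difference -5.94, 95% interval -9.98 to -1.89). mir-9-2 and mir-9-3 differed by -5.54 and -6.44, with adjusted p between 0.190 and 0.192 for the 3 from limma. The median of the list lies between the differences of mir-9-1 and mir-9-2, so it rests on these copies, which were also taken as neuron markers. The other members went in both directions, with -7.73 for mir-146b, -6.60 for mir-21a, 0 for mir-155, 1.80 for mir-146a and 3.12 for mir-132.

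Members with a known role in TLR4 signalling were added to the text after their values were seen. mir-146a, a feedback inhibitor of the TLR4 adaptors, had 46.4, 46.4 and 48.6 in WT and 58.3, 46.4 and 42.1 in TLR4-KO + EtOH, with overlap (difference 1.80, 95% interval -7.60 to 11.2). mir-146b went the other way, with the lowest difference of the list at -7.73, also with overlap. mir-155, a miRNA induced by NF-kB, was at 0 in all 6 libraries. mir-21a had 50.6, 49.5 and 49.8 against 40.6, 44.8 and 44.7, without overlap (difference -6.60, 95% interval -15.9 to 2.68). mir-132, also regulated by CREB, had 51.1, 49.1 and 51.1 against 61.0, 51.1 and 48.5, with overlap. The direction of mir-146a and mir-132 turned without TLR4-KO + EtOH replicate 1. In the list of leukocytes and microglia, mir-142a had 44.2, 45.9 and 42.6 against 29.9, 29.2 and 38.2 (difference -11.8, 95% interval -26.0 to 2.46), mir-150 was higher as given above, and mir-342 overlapped (difference 3.11). The summed score of this list was 129.9 to 140.9 in WT and 129.7 to 142.7 in TLR4-KO + EtOH, and mir-223, a defining miRNA of myeloid cells, was at 0 in all 12 libraries.

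The lists of brain and vessel cells held no called precursor, where 1.87% of all tested were called. Of 13 neuron-enriched precursors, 3 were higher and 2 lower without overlap, where 29.6% of all precursors above 0 did not overlap, with a median difference of 2.06, and their summed score was 627 to 656 in WT and 653 to 673.2 in TLR4-KO + EtOH. mir-129-1 was among them, with 71.0, 73.9 and 73.3 against 76.0, 77.3 and 74.0 (difference 3.02), while its copy mir-129-2 overlapped (difference 2.64). The 2 lower members, added after their values were seen, were the copies mir-218-1 (difference -8.37) and mir-218-2 (difference -7.61), and mir-218-1 had 55.5, 53.0 and 58.8 against 44.2, 46.4 and 51.4. The 3 mir-9 precursors, also taken as neuron markers, are not on this list. They were lower without overlap, with differences between -6.44 and -5.54, so the median of the list does not speak for all neuron markers. Of the vascular list, mir-143 had 83.7, 83.3 and 85.2 against 77.6, 81.1 and 80.6 (difference -4.25, 95% interval -7.48 to -1.02), and mir-145a, of the same transcript in smooth muscle, had 52.7, 58.8 and 55.6 against 65.6, 63.5 and 59.96 (difference 7.33, 95% interval 2.13 to 12.5). The members of this pair thus differed in opposite directions, both without overlap. The endothelial mir-126a and mir-126b differed by -5.31 and -4.11 and overlapped. mir-204 of the choroid plexus had 81.1, 84.6 and 81.1 against 87.7, 85.2 and 92.4 (difference 6.14, 95% interval -0.871 to 13.2), and mir-212 had 53.8, 53.6 and 54.7 against 65.1, 57.6 and 56.1 (difference 5.58).

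Among the broadly expressed families, all differences given here were without overlap unless stated. mir-30c-1 and mir-30c-2, which share a mature sequence, were at 89.7 to 91.0 in WT and at 93.4 to 95.6 in TLR4-KO + EtOH (differences 4.16 and 3.84). mir-16-1 and mir-16-2 were at 79.9 to 80.9 in WT and at 72.1 to 78.8 in TLR4-KO + EtOH (differences -5.35 and -5.59), and mir-497a of the same seed family differed by 5.23. mir-27b had 12.1, 24.5 and 18.97 against 5.70, 10.9 and 0 (difference -13.0). mir-222 had 10.9, 4.23 and 0 against 26.7, 18.1 and 17.5 (difference 15.7), and mir-221 of the same transcript overlapped (difference 4.46). None of these was called. The let-7 family had a median difference of -0.321 over 13 members, of which 1 was higher and 3 lower without overlap, a share near the 29.6% over all precursors above 0. The Dlk1-Dio3 cluster had 39 members above 0, a median difference of 0.945, 4 higher and 5 lower without overlap, and mir-299a as the single call, so that its members without overlap were a smaller share than the 29.6% over all precursors above 0. In the miR-181 family, mir-181a-1 and mir-181a-2 had the same score in every library and mir-181b-2 overlapped (difference 2.26).

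**Figure D4:**
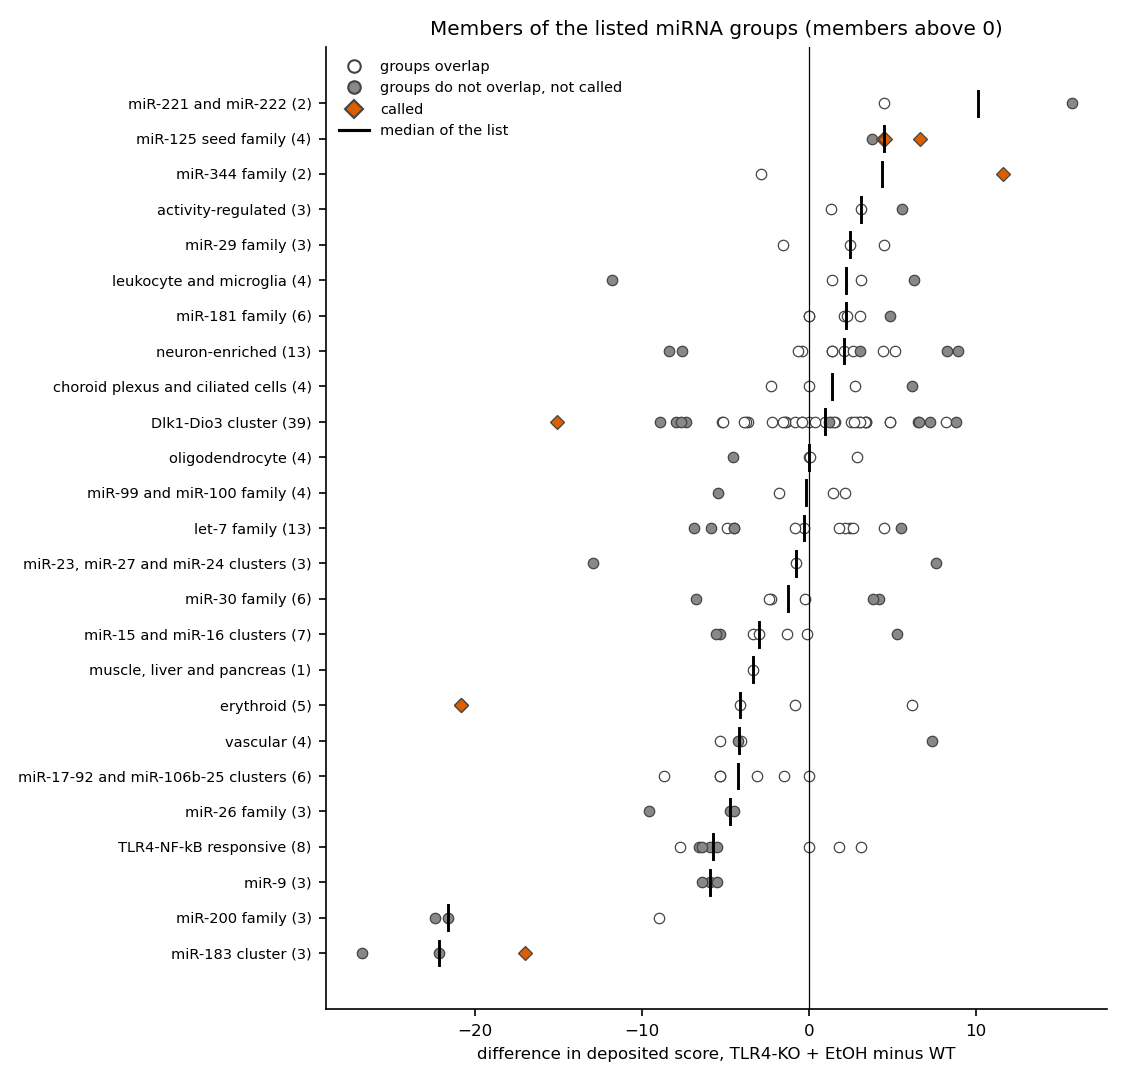
Difference in deposited score, TLR4-KO + EtOH minus WT (horizontal axis), of each member above 0 of the 25 listed miRNA groups (rows, with the number of members), ordered by the median. The miR-183 cluster and the miR-200 family have medians of -22.2 and -21.7, and the miR-125 seed family holds 3 of the 6 precursors called higher. Some precursors stand in several lists.

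The differences moved with the base composition of the mature sequences. Mature sequences with a known GC content were found for 168 of the 186 precursors with a mean score of at least 20 (90.3%). GC content was taken over all listed mature sequences of a hairpin together, so it may differ from that of the arm that was read. Some hairpins have a single listed sequence, and let-7a-1 has 36.4% from 2 sequences where let-7a-2 has 52.4% from 1. Across these 168 precursors, which share the libraries and are not independent, Spearman's rank correlation between GC content and the difference from WT was 0.491. In the third with the lowest GC content (31.1% to 45.5%) the median difference was -3.21, with 21 precursors lower and 0 higher without overlap. In the third with the highest (53.5% to 85.7%) it was 2.89, with 3 lower and 20 higher. The slope of the score on GC content was negative in the 3 WT libraries, at -2.74, -2.19 and -1.99 per 10% GC, and -0.105, 1.07 and 0.482 in the TLR4-KO + EtOH libraries. The slopes of the WT + EtOH and TLR4-KO libraries lay between -0.292 and 1.70, so that WT stood apart from the other 9 libraries.

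GC content was 50.0% for mir-125b-2, 54.3% for mir-125a, 64.4% for mir-351 and 61.9% for mir-7224, which were higher. It was 36.4% for mir-451a and 37.8% for mir-96, which were lower, and 33.3% for the mir-9 precursors. Not all called precursors followed this order, since mir-299a, which was lower, had 47.7% and mir-344d-3, which was higher, had 46.7%. mir-3087, also higher, had 52.4%. The row of mir-451b, which was lower, has 57.1% and goes against this order, but it may hold the reads of mir-451a, which was not tested. With the slope of each library removed over the 490 precursors with a mature sequence, 10 were called, 5 of them higher. mir-351 and mir-7224 were no longer called, mir-6952 has no value, and the other 8 remained called. Of those gained, mir-181a-1 and mir-181a-2 have the same deposited score in every library. The median difference of the mir-9 list moved from -5.94 to -1.22 and that of the miR-26 family from -4.77 to -2.80. That of the miR-125 seed family moved from 4.50 to 2.98, the difference of mir-351 being 2.67 in place of 6.64. That of the TLR4-NF-kB responsive list moved from -5.74 to -1.22 over the 7 of its 8 members with a known GC content, while that of the miR-183 cluster was -20.2 and that of the miR-200 family -20.8. The cause of the slope was not tested.

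**Figure D5:**
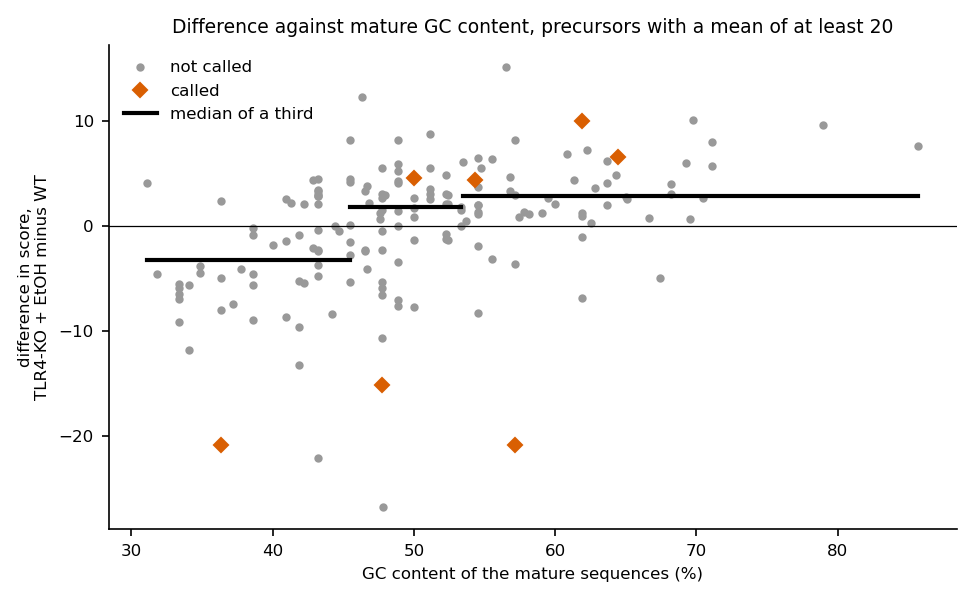
Difference in deposited score, TLR4-KO + EtOH minus WT (vertical axis), against the GC content of the mature sequences in percent (horizontal axis) for the 168 precursors with a mean score of at least 20 and a known sequence. Diamonds are called precursors and the horizontal lines the medians of 3 equal parts of the precursors ordered by GC content, at -3.21, 1.81 and 2.89.

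The split of calls by direction depended on the scale. Over the 190 precursors above 0 in all libraries the median difference was 1.04. When each library was centred on its miR-181a and miR-181b precursors, that median was -0.0512, and 5 precursors were called, 0 higher and 5 lower, against 6 higher and 5 lower. mir-125b-2, mir-125a, mir-351, mir-7224, mir-344d-3 and mir-3087 were then not called, their direction being the same. mir-451a, mir-451b, mir-96, mir-299a and mir-6952 were called on either scale.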

How the data were processed

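Cortical small RNA was sequenced as 12 libraries, each a pool of 3 mice, with 3 libraries for each combination of genotype and drink. Per the labels and the study's methods, reads passed FastQC 0.11.6, were trimmed with cutadapt, were mapped with Bowtie2 2.2.5 and TopHat (build GRCm38), and were counted per precursor. The miRBase release is not given in the sources used here. The deposited values are a score made by the authors. Their methods name the trimmed mean of M values, and the step that gave this scale is not given in the sources used here. In the values, equal positions in the order of precursors carry nearly equal scores in all libraries and 0 is common. They are not counts, so no count test was run and the depth is unknown. Values that go by rank can move a precursor when its neighbours move.

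Groups were taken from the sample labels. limma 3.58.1 (R 4.3.3, lmFit, contrasts.fit, eBayes) was fitted to the scores of all 12 libraries with 1 mean per group, tested on simulated data first. p-values were adjusted over all 589 precursors by the Benjamini-Hochberg method, and called means an adjusted p under 0.05. Intervals are 95% intervals of limma. Since the libraries are pools, p-values measure the spread between pools. Named are the called precursors, the next by p up to 20, up to 4 members of each list (called first, then the most abundant), those called against TLR4-KO or WT + EtOH, and those found in all libraries of a group and none of the other. The members and lists were chosen with earlier results of these data known. 10 of the 11 called precursors, and 490 of all, matched a RefSeq mature sequence. Positions are from GENCODE on GRCm38. Alternatives were another normalization, 2 centrings, 2 filters on low scores, the 2 groups alone, a replicate block, 2 variance models, merging of copies, a higher detection level, and leaving out each library. After seeing the data, 4 were added, on GC content, on the precursors with known GC, on low scores and on 3 libraries that stand apart.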

Additional observations from a re-analysis of the deposited data

Results flagged for a closer look

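The effect of ethanol in TLR4-KO minus its effect in WT was tested in the same limma fit, and it differed from 0 for 7 of the 589 precursors at an adjusted p under 0.05 (1.19%), 3 above 0 and 4 below. For mmu-mir-125b-2 the effects differed by -4.56 (limma, adjusted p = 0.00073), and the difference was -4.43 for mmu-mir-125a (adjusted p = 0.028 from limma), -9.93 for mmu-mir-351 (adjusted p = 0.0416 from limma) and -11.9 for mmu-mir-744 (adjusted p = 0.0258 from limma). In each of these 4 the ethanol step was upwards in WT, by 4.77, 4.22, 7.93 and 6.73, and in TLR4-KO it was 0.207, -0.207, -2.005 and -5.20. The first pair of these already held positions 3 and 4 in the TLR4-KO libraries, below the mir-181a precursors with their fixed scores, so that ethanol could hardly raise their scores there and the test does not show that their response differs.

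The difference of the effects was 4.56 for mmu-mir-6952 (adjusted p = 0.000305 from limma), which was at 0 in both TLR4-KO groups and could not go lower there. It was 5.54 for mmu-mir-3087 (adjusted p = 0.028 from limma), which was above 0 in TLR4-KO + EtOH only, at the lowest score of each library. For mmu-mir-344d-3 it was 18.4 (adjusted p = 0.028 from limma), with an ethanol step of -3.65 in WT and 14.8 in TLR4-KO.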

How the results depend on the processing

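11 precursors were called, 6 higher and 5 lower in TLR4-KO + EtOH. Centring on miR-181a and miR-181b called 5, 0 of them higher. The filter of at least 3 libraries above 0 called 3 higher, with 285 tested, and a mean of at least 20 called 3 lower, with 186 tested. The 2 groups alone called 18, 11 of them lower, and raising low scores called 6, 2 of them higher. Without replicate 1 of each group other than WT, 26 were called, 13 higher and 13 lower. The causes were not tested. Leaving out each library gave 7 to 17 calls, 3 to 11 of them higher and 4 to 7 lower. There were 7 without WT replicate 2 or without TLR4-KO + EtOH replicate 2, and 17 without WT + EtOH replicate 3. Calls for higher precursors fell to 3 also without WT replicate 3 and without WT + EtOH replicate 2. mir-451a and mir-451b were called under all 26 alternatives.

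At a score of at least 10 in place of above 0, 3 precursors were found in all WT and no TLR4-KO + EtOH libraries, and 3 in the reverse. Leaving out each library of these groups gave 11 to 14 and 5 to 7. Of the named precursors, mir-132 ranged from -0.627 to 5.62, mir-146a from -2.90 to 5.23 and mir-486a from -1.52 to 0.509 on leaving out each library, so that their direction turned. Leaving out replicate 1 of the 3 groups other than WT gave -0.627, -2.90 and 0.509, also turned.

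Whether the replicate numbers pair the libraries of WT and TLR4-KO + EtOH could not be decided from the values. Deviations of WT and TLR4-KO + EtOH libraries with the same number correlated at 0.0636, 0.129 and -0.0712 over 190 precursors, and 2 of the 3 correlated best with their own number. Between TLR4-KO and TLR4-KO + EtOH the correlations were 0.133, 0.101 and 0.153, between WT + EtOH and TLR4-KO + EtOH 0.152, 0.0721 and 0.125, and over the other pairs of groups from -0.109 to 0.153. A fit with the replicate number as a block called 19, 7 of them higher and 12 lower, and lost mir-7224.

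The number of pools, 3 per group, and the unknown depth limit the precision, most of all near a score of 0.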
